A study of Mus with 12 samples.

Results

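Glycosyltransferase and sialyltransferase genes were taken from the deposited gene table by symbol, as every gene whose name starts with Galnt, St3gal, St6gal (St6galnac included), St8sia, B3gnt, B4galt, B3galt, Mgat, Fut or Chst followed by its number. The rule found 76 of the 27294 genes in the table and used no measured value. Of these rows 1 is not an enzyme gene (Galnt6os, an RNA antisense to Galnt6), and St6galnac2 stands on 2 rows. Enough reads for a test were present for 62 of the 76 members and for 17291 of all genes. The other 14 members had highest group means of 0.0641 FPKM or less, where FPKM is fragments scaled by transcript length and by library size, a level that can be compared between genes.

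These enzymes sit mostly in the Golgi and build the sugar chains of glycoproteins, glycolipids and proteoglycans one residue at a time from nucleotide-sugar donors. Galnt enzymes begin mucin-type O-glycans, Mgat enzymes branch N-glycans, B3gnt and B4galt enzymes extend both with N-acetyllactosamine, and Fut and sialyltransferase enzymes cap the chains with fucose or sialic acid. Chst enzymes place sulfate groups, many of them on chondroitin and keratan chains. On macrophages the finished caps are read by siglecs, galectins and selectins, and the gangliosides of the cell membrane depend on St3gal5.

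Polyadenylated RNA of mouse primary peritoneal macrophages was sequenced in 12 libraries, 3 in each of 4 groups. The groups were KO macrophages with oxLDL (oxidised low-density lipoprotein), KO macrophages with no treatment given in the labels, WT macrophages with oxLDL, and WT macrophages with no treatment given. The series title names macrophage WEE1, a cell-cycle kinase, in atherosclerosis and NF-κB p65 signalling. The labels do not say which gene the KO lacks, how it was deleted, the strain or age of the mice, the dose or time of oxLDL, or whether the replicates came from separate animals, so the p-values measure only the spread between these libraries. The titles of the treated libraries say LDL and their treatment field says oxLDL.

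Counts assigned to genes came to between 53588814 and 76809931 per library, lowest in WT replicate 2 of both treatments. Wee1 stood at 1.3, 1.6 and 1.25 FPKM in KO libraries with oxLDL, 1.63, 1.6 and 1.22 FPKM in untreated KO libraries, 1.44, 1.78 and 1.63 FPKM in WT libraries with oxLDL, and 3.09, 3.25 and 2.8 FPKM in untreated WT libraries. It was lower in KO than in WT without treatment, with a log2 difference of -0.93 ± 0.14 (SE; adjusted p = 0.000139, edgeR's quasi-likelihood test, adjusted by Benjamini-Hochberg over all genes tested, which is the test used throughout), and was still present in the KO libraries, while with oxLDL the KO and WT ranges of FPKM overlapped (log2 difference -0.53 ± 0.14, adjusted p = 0.00587). Summed FPKM of 7 macrophage markers was 10600 to 11300 in KO with oxLDL, 11100 to 11800 in untreated KO, 14600 to 15600 in oxLDL-treated WT and 21000 to 21400 in untreated WT. Lyz2 and then Cd68 led this sum in every group. Mean Cd68 itself was higher in KO, at 2000 FPKM in both KO groups, 1380 FPKM in oxLDL-treated WT and 1630 FPKM in untreated WT. Summed FPKM of 6 B cell markers was 7.27 to 7.87, 6.98 to 9.38, 20.2 to 26.7 and 21.2 to 26 in the same groups, nearly all of it Ighm. Mean Cd79b went against that sum, at 1.02, 0.921, 0.234 and 0.524 FPKM in the same groups, and mean Ms4a1 was also higher in both KO groups. Summed FPKM of the markers of large peritoneal macrophages (through Timd4), mast cells (Cma1, Cpa3 and Tpsb2), neutrophils (S100a8) and T cells (Lck) was also lower in both KO groups than in both WT groups. Other single markers went against these sums in part or in full. Mean Gata6 was 0.173 FPKM in KO with oxLDL, 0.199 FPKM in untreated KO, 0.0991 FPKM in oxLDL-treated WT and 0.249 FPKM in untreated WT. Mean Icam2 was 1.31, 1.41, 0.891 and 2.15 FPKM in the same groups. By these means both were higher in KO than in WT with oxLDL and lower without treatment. Mean Cd2 was higher in both KO groups than in both WT groups. The sums of eosinophil and dendritic cell markers were higher in both KO groups through Siglecf and Cd209a. Of the other dendritic cell markers, mean Flt3 was also higher in KO. Xcr1 went the other way, with 6 counts in KO with oxLDL, 0 in untreated KO, 45 in oxLDL-treated WT and 16 in untreated WT. Zbtb46 in both KO groups lay between the 2 WT groups. The sums of mesothelial markers reached at most 1.14 FPKM and those of adipocyte markers 0.101 FPKM. The part of these markers in the results below was not tested. In such bulk samples fewer cells of a type and less RNA per cell cannot be told apart.

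The test scaled each library by TMM, the trimmed mean of M-values. Scaling by library totals instead, as FPKM does, moved the median log2 oxLDL change of all genes in WT to -0.46, against -0.06 with TMM, so a small oxLDL rise by the test can stand beside equal or lower FPKM. Many results are therefore given under both scalings.

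In KO macrophages 0 of the 62 members changed with oxLDL by edgeR's quasi-likelihood test or by DESeq2, and 5 had an unadjusted p under 0.05. Over all genes the share changed was 0.0116%. The files hold no separate check that the KO libraries named as oxLDL-treated received it, so KO cells that did not respond and KO libraries that were not treated or carry the wrong name cannot be told apart, and every value of KO with oxLDL and of the interaction rests on the labels. The 28 members described most closely here had oxLDL log2 changes between -0.29 ± 0.14 (B3galt6) and 0.21 ± 0.07 (St3gal2, SE) in KO macrophages, and between -5.80 ± 0.39 (Galnt9) and 2.88 ± 0.05 (St3gal5) in WT macrophages. These 28 were picked by their largest change in a comparison they passed, never oxLDL in KO, so these ranges are not a like comparison. Over all 62 tested members the changes ran between -1.3 and 1.33 in KO and between -5.8 and 2.88 in WT.

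In WT macrophages 38 of the 62 members tested changed with oxLDL, 15 up and 23 down, and 19 of them changed at least 2-fold; over all genes 51.2% changed (23.9% up and 27.2% down) and 20.3% changed at least 2-fold. With library totals the split was 8 up and 33 down. The median log2 change of the members was -0.22 (-0.27 without Galnt15, which had 0 counts in all WT libraries), against -0.06 over all genes.

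Between genotypes with oxLDL, 43 of 62 members differed, 32 higher and 11 lower in KO than in WT, against 57.9% of all genes (30.6% higher and 27.4% lower), and 26 did so at least 2-fold, against 28.5% of all genes. Without treatment 30 members differed, 23 higher and 7 lower in KO, against 31.0% of all genes (14.8% higher and 16.2% lower); 7 did so at least 2-fold, against 10.1% of all genes. With library totals the split was 38 higher and 8 lower with oxLDL, and 20 higher and 10 lower untreated. The median log2 difference of all genes was then 0.36 with oxLDL and -0.12 untreated. With TMM the median log2 difference of the members was 0.42 with oxLDL and 0.14 untreated, against 0.05 and -0.01 over all genes. These comparisons share libraries with the oxLDL comparisons, so the 4 are not independent.

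The oxLDL change differed between genotypes for 34 members by the test of that difference (the interaction term), with 41.7% of all genes called (22.1% higher and 19.6% lower). In 19 the KO change was the higher and in 15 the lower; with library totals it was 30 and 7.

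**Figure D1:**
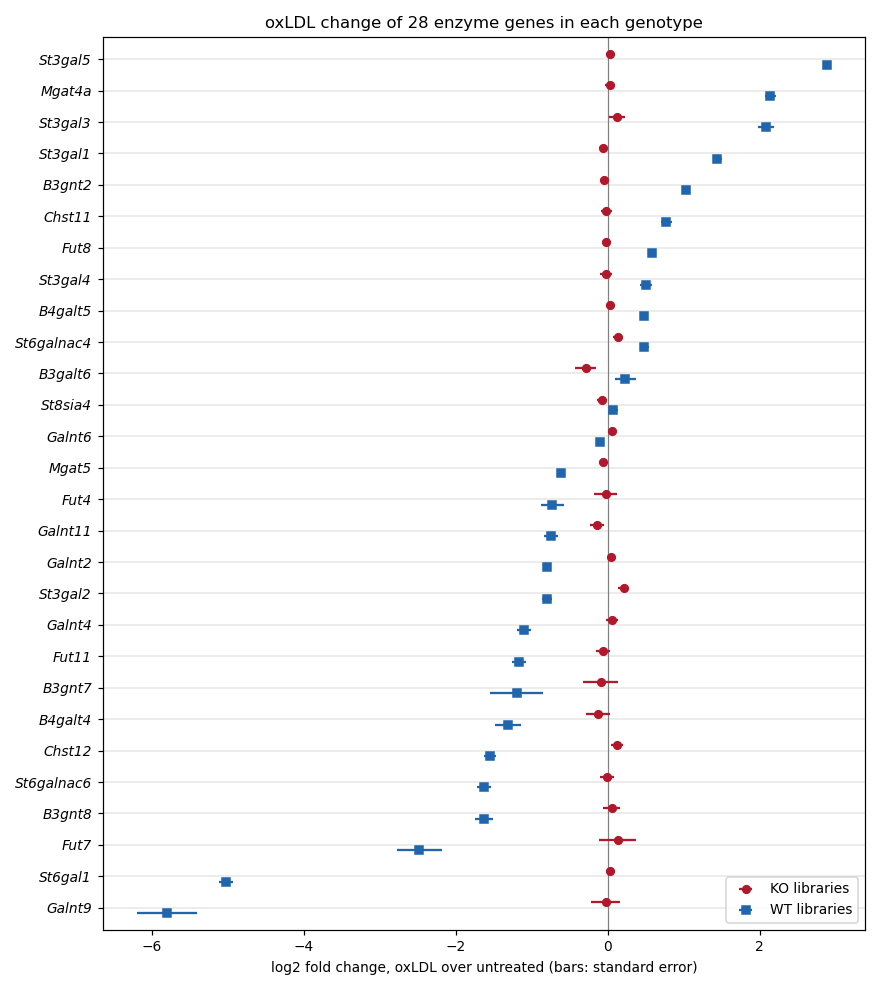
Log2 fold change of oxLDL over untreated (horizontal axis, edgeR with TMM scaling) for 28 enzyme genes, in KO libraries (red circles) and WT libraries (blue squares); bars are standard errors and each estimate rests on 3 against 3 libraries. KO estimates lie between -0.29 and 0.21, while WT estimates run between -5.80 for Galnt9 and 2.88 for St3gal5. The genes were picked by their largest change in a comparison they passed, and none passed for oxLDL in KO.

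By level, 22 members reached 10 FPKM in at least 1 group mean, 19 peaked between 1 and 10 FPKM, and 35 stayed under 1 FPKM. Summed over a class, FPKM with oxLDL in WT fell outside the other 3 groups in each of the 7 classes. O-GalNAc transferases summed to 167 ± 0.69 FPKM in KO with oxLDL, 167 ± 3.2 in untreated KO, 83.3 ± 1.6 in oxLDL-treated WT and 138 ± 5 in untreated WT (SD, n = 3 each, as for every ± on FPKM below). Sialyltransferases went the other way in WT, with 129 ± 4.2, 126 ± 2.3, 221 ± 6.2 and 121 ± 2.2 FPKM in the same groups. Such sums weigh the most abundant enzymes and were not tested. They follow library totals: with FPKM divided by the TMM factors, a scaling chosen after seeing the data, WT with oxLDL lay outside the other groups in 5 of the 7 classes. Galactosyltransferases then summed to 144 ± 1.4 in oxLDL-treated WT, against 125 ± 2.8 in untreated WT, and N-glycan branching enzymes to 88.4 ± 4.2, against 84.8 ± 2.6.

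**Figure D2:**
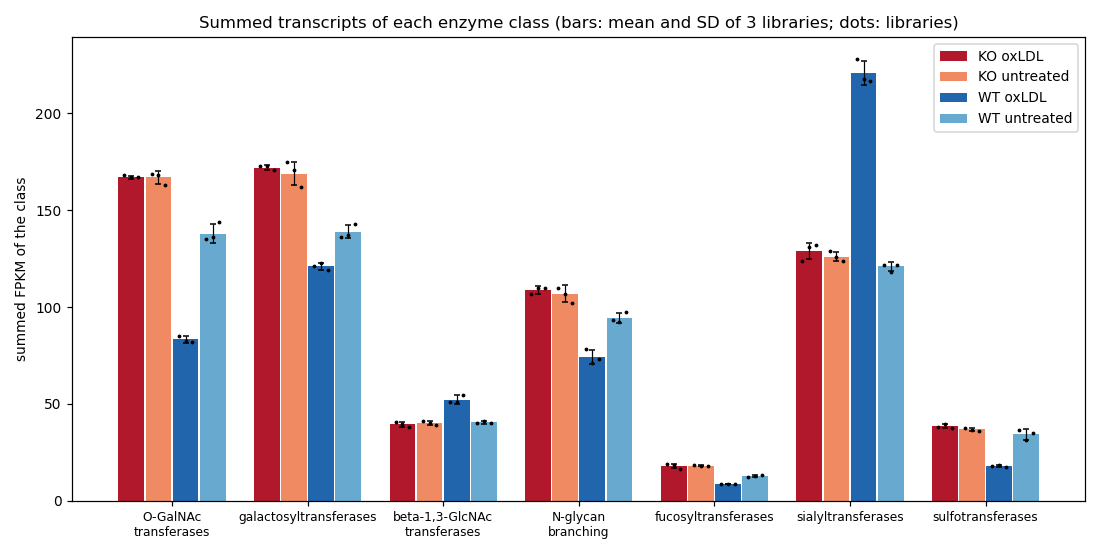
Summed FPKM (vertical axis) of the members of each enzyme class in KO with oxLDL, untreated KO, WT with oxLDL and untreated WT; bars are means with SD over 3 libraries and dots are libraries. Both KO groups are close to each other in every class, and WT with oxLDL is highest for sialyltransferases (221 FPKM) and beta-1,3-GlcNAc transferases (52.2 FPKM) and lowest for the other 5 classes on this scale.

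The O-GalNAc transferases attach the first sugar of mucin-type O-glycans. Class counts here and below stand against 51.2% of all genes called with oxLDL in WT. For KO against WT the share of all genes was 57.9% with oxLDL and 31.0% untreated. With oxLDL in WT the called share was 53.8% for O-GalNAc transferases, 50.0% for galactosyltransferases and 37.5% for sulfotransferases, near or below that of all genes. The other classes lay between 57.1% and 100%. With oxLDL in WT 6 of 13 tested genes of this class fell and 1 rose, Galnt7, whose direction turned with the scaling (log2 change 0.19 with TMM, -0.22 with library totals), as did its interaction (-0.27 and 0.14). Levels in KO were higher than in WT for 9 genes and lower for 0 with oxLDL, the antisense RNA Galnt6os being 1 of the 9, and higher for 6 and lower for 1 without treatment.

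Galnt9, which in mammals is known mainly from brain, changed most of all members. It read 6.89, 6.47 and 6.16 FPKM in KO with oxLDL, 6.86, 6.96 and 6.09 FPKM in untreated KO, 0.0173, 0.0234 and 0 FPKM in oxLDL-treated WT, and 0.877, 0.879 and 1.44 FPKM in untreated WT. The KO libraries all lay well above the WT libraries, and within WT the oxLDL libraries were at or near 0, with 9 counts in all against 708 counts without oxLDL. Its log2 change with oxLDL was -0.03 ± 0.19 in KO (adjusted p = 1) and -5.80 ± 0.39 in WT (adjusted p = 9.6e-09), and KO over WT was 8.50 ± 0.35 with oxLDL (adjusted p = 2.19e-11) and 2.74 ± 0.21 untreated (adjusted p = 7.91e-08). The gene lies on chr5:110544355-110621377 on the plus strand, and no other gene of the table overlaps it. Positions are those of the deposited table; for all 76 members they overlap the same gene in the GRCm38.p6 annotation, although the submitters' processing notes name mm8.

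Galnt6 was the most abundant O-GalNAc transferase. Its levels were 68.9, 69.2 and 70.7 FPKM in KO with oxLDL, 67.3, 67.9 and 64.3 FPKM in untreated KO, 27.4, 26.4 and 25.5 FPKM in oxLDL-treated WT, and 35.8, 36.8 and 40 FPKM in untreated WT. The groups with and without oxLDL did not overlap in WT, yet the TMM-scaled log2 change of -0.10 ± 0.05 missed the threshold (adjusted p = 0.0957) and became -0.50 with library totals (adjusted p = 2.84e-07). KO exceeded WT by a log2 difference of 1.09 ± 0.05 with oxLDL (adjusted p = 2.67e-11) and 0.93 ± 0.05 untreated (adjusted p = 5.84e-10). The antisense Galnt6os shares its position and averaged 0.119 to 0.363 FPKM over the groups. No source used here says whether the counting used strand, and the reads of genes that overlap cannot be told apart.

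Galnt2, a broadly acting initiating enzyme, averaged 24.3 ± 0.25 FPKM in KO with oxLDL, 23.7 ± 0.74 FPKM in untreated KO, 13.3 ± 0.22 FPKM in oxLDL-treated WT and 30.8 ± 1.7 FPKM in untreated WT. Its difference between genotypes changed sign with treatment: the log2 difference KO over WT was 0.56 ± 0.05 with oxLDL (adjusted p = 1e-07) and -0.27 ± 0.05 untreated (adjusted p = 0.000381), and the interaction of 0.84 ± 0.07 passed the test (adjusted p = 1.33e-07). Galnt4, which prefers peptides that already carry GalNAc, averaged 8.91 ± 0.86, 8.57 ± 0.67, 2.48 ± 0.22 and 7.1 ± 0.35 FPKM in the same order of groups, and fell by 1.10 ± 0.09 (log2) with oxLDL in WT (adjusted p = 5.77e-08). Galnt4 overlaps Poc1b, so its counts may be shared. Galnt11 averaged 3.62 ± 0.22 FPKM in KO with oxLDL, 3.99 ± 0.24 FPKM in untreated KO, 1.43 ± 0.11 FPKM in oxLDL-treated WT and 3.2 ± 0.29 FPKM in untreated WT, and fell by 0.75 ± 0.09 (log2) in WT with oxLDL (adjusted p = 4.53e-06). All 3 were lower with oxLDL in WT with no overlap of libraries, and in KO the oxLDL and untreated libraries of all 3 overlapped.

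Among galactosyltransferases, which add galactose to extend N-glycans, O-glycans, glycolipids and the linker of glycosaminoglycans, 3 of 10 tested genes rose and 2 fell with oxLDL in WT. With library totals the split was 0 up and 4 down, B4galt1 passing the test in opposite directions (log2 change 0.21 with TMM, -0.20 with library totals; interaction -0.21 and 0.20). In KO against WT, 3 were higher and 2 lower with oxLDL, which became 5 and 0 with library totals, and 4 were higher and 1 lower without treatment.

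B4galt5, a lactosylceramide synthase, had the highest group mean of any member. It read 101, 99.6 and 96.7 FPKM in KO with oxLDL, 99, 101 and 90.4 FPKM in untreated KO, 62.7, 64.1 and 62.3 FPKM in oxLDL-treated WT, and 58.6, 59.2 and 62.8 FPKM in untreated WT. Both KO groups lay above both WT groups, and within each genotype the treatments overlapped. The log2 difference KO over WT was 0.35 ± 0.05 with oxLDL (adjusted p = 1e-05) and 0.79 ± 0.05 untreated (adjusted p = 3.83e-09); its log2 oxLDL change in WT, 0.48 ± 0.05 with TMM, was 0.07 with library totals and no longer passed (adjusted p = 0.214).

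B4galt6, the other lactosylceramide synthase, differed from B4galt5 in sign between genotypes without treatment, averaging 17 ± 0.66 FPKM in KO with oxLDL, 18 ± 0.34 FPKM in untreated KO, 18 ± 0.78 FPKM in oxLDL-treated WT and 30 ± 0.6 FPKM in untreated WT. It was lower in untreated KO than in untreated WT (log2 difference -0.63 ± 0.04, adjusted p = 3.99e-08) and fell by 0.33 ± 0.04 (log2) with oxLDL in WT (adjusted p = 2.27e-05). B4galt4, which acts on sulfated acceptors of keratan chains, averaged 1.82 ± 0.21, 1.99 ± 0.15, 0.649 ± 0.16 and 2.16 ± 0.23 FPKM in the same groups, and fell by 1.31 ± 0.17 (log2) with oxLDL in WT (adjusted p = 1.43e-05). B3galt6, a linker galactosyltransferase, was higher in untreated KO (1.72 ± 0.14 FPKM) than in untreated WT (1.17 ± 0.14 FPKM), by 0.66 ± 0.14 (log2, adjusted p = 0.00198).

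The beta-1,3-GlcNAc transferases lay down the repeating units of poly-N-acetyllactosamine. With oxLDL in WT 2 of 7 tested genes rose and 2 fell (2 and 4 with library totals). In KO against WT, 3 were higher and 2 lower with oxLDL (3 and 1 with library totals), and 1 was higher and 1 lower without treatment.

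B3gnt2, the main poly-N-acetyllactosamine synthase, made up 61 ± 1.5% of the class by FPKM in KO with oxLDL, 62.3 ± 0.79% in untreated KO, 92 ± 1.9% in oxLDL-treated WT and 77.6 ± 1.2% in untreated WT. Its levels were 25, 24.5 and 22.7 FPKM in KO with oxLDL, 25.4, 24.9 and 24.6 FPKM in untreated KO, 45.6, 47.5 and 51.2 FPKM in oxLDL-treated WT, and 31.6, 32 and 30.4 FPKM in untreated WT. It rose with oxLDL in WT by 1.03 ± 0.05 (log2, adjusted p = 5.08e-10) and was lower in KO, with log2 differences of -1.30 ± 0.05 with oxLDL (adjusted p = 2.01e-11) and -0.22 ± 0.05 untreated (adjusted p = 0.00475). The WT libraries were all above the KO libraries. Several small genes and Commd1b overlap it.

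B3gnt7, which extends keratan-type chains, had most of its reads in KO libraries. It read 5.34, 5.73 and 5.41 FPKM in KO with oxLDL, 6.4, 5.71 and 5.46 FPKM in untreated KO, 0.0428, 0.102 and 0.136 FPKM in oxLDL-treated WT, and 0.417, 0.158 and 0.254 FPKM in untreated WT. KO and WT were far apart under both treatments, with log2 differences of 5.56 ± 0.32 with oxLDL (adjusted p = 9.72e-10) and 4.45 ± 0.28 untreated (adjusted p = 9.47e-09). Its log2 oxLDL change in WT of -1.20 ± 0.35 passed the test (adjusted p = 0.0108) on 83 counts with oxLDL and 263 counts without, and did not pass without replicate 1 of WT with oxLDL (-0.81) or without replicate 1 of untreated WT (-0.77).

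B3gnt8, a partner of B3gnt2 on branched N-glycans, was lowest in WT with oxLDL. It averaged 4.62 ± 0.41 FPKM in KO with oxLDL, 4.46 ± 0.65 FPKM in untreated KO, 1.03 ± 0.059 FPKM in oxLDL-treated WT and 4.24 ± 0.44 FPKM in untreated WT. It fell by 1.63 ± 0.12 (log2) with oxLDL in WT (adjusted p = 1.92e-08), and the untreated KO and WT libraries overlapped (log2 difference 0.18 ± 0.11, adjusted p = 0.269).

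N-glycan branching enzymes set how many antennae an N-glycan carries. With oxLDL in WT 4 of 6 tested genes fell and 1 rose (5 and 1 with library totals). In KO against WT, 4 were higher and 1 lower with oxLDL, and 2 were higher and 1 lower without treatment.

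Mgat4a and Mgat4b, which open the same beta-1,4 branch, differed in both level and change. Mgat4a read 1.88, 1.8 and 2.02 FPKM in KO with oxLDL, 2.04, 1.71 and 1.83 FPKM in untreated KO, 10, 10.3 and 10.5 FPKM in oxLDL-treated WT, and 3.05, 3.05 and 3.18 FPKM in untreated WT. It rose by 2.14 ± 0.07 (log2) with oxLDL in WT (adjusted p = 2.18e-12), and KO over WT was -2.73 ± 0.07 with oxLDL (adjusted p = 6.54e-14) and -0.63 ± 0.07 untreated (adjusted p = 2.63e-06). Mgat4b, the most abundant of the class, averaged 42.5 ± 2.5 FPKM in KO with oxLDL, 39.7 ± 2.7 FPKM in untreated KO, 25.7 ± 2.7 FPKM in oxLDL-treated WT and 31.1 ± 0.93 FPKM in untreated WT. Its log2 oxLDL change in WT was 0.13 ± 0.07 with TMM (adjusted p = 0.157) and -0.28 with library totals (adjusted p = 0.00433).

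Mgat5, which opens the beta-1,6 branch that galectin ligands often extend, went against Mgat4a. It averaged 15.6 ± 0.37 FPKM in KO with oxLDL, 16.2 ± 0.67 FPKM in untreated KO, 5.4 ± 0.2 FPKM in oxLDL-treated WT and 11 ± 0.35 FPKM in untreated WT. The 4 groups did not overlap except the KO pair. Mgat5 fell by 0.62 ± 0.05 (log2) with oxLDL in WT (adjusted p = 3.27e-08), and KO over WT was 1.22 ± 0.05 with oxLDL (adjusted p = 8.07e-12) and 0.67 ± 0.05 untreated (adjusted p = 2.56e-08). Mgat1 and Mgat2, which act earlier in the same route, moved less, with log2 oxLDL changes in WT of -0.18 ± 0.07 (adjusted p = 0.042) and -0.17 ± 0.06 (adjusted p = 0.0205).

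All 5 fucosyltransferases in the table were tested. With oxLDL in WT 4 fell and 1, Fut8, rose. In KO against WT, 5 were higher with oxLDL and 2 without treatment, and these counts were the same with library totals. The Fut8 difference with oxLDL, 0.12 ± 0.05 (log2, adjusted p = 0.0424), did not pass in 7 of the 12 fits that left out 1 library (0.08 to 0.13), nor with the replicate block (adjusted p = 0.0534), only the groups compared (0.0849), DESeq2 (0.0958) or its size factors in edgeR (0.168).

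Fut7, which makes the fucosylated sialyl Lewis x ligand of selectins, read 4.17, 3.57 and 3.25 FPKM in KO with oxLDL, 3.56, 3.45 and 3.04 FPKM in untreated KO, 0.12, 0.0445 and 0.177 FPKM in oxLDL-treated WT, and 0.7, 0.857 and 1.19 FPKM in untreated WT. Every WT library lay below every KO library. It fell by 2.48 ± 0.30 (log2) with oxLDL in WT (adjusted p = 6.92e-06), and KO over WT was 4.57 ± 0.30 with oxLDL (adjusted p = 5.77e-09) and 1.96 ± 0.25 untreated (adjusted p = 2.15e-05). Fut7 lies on chr2:25423267-25426374 on the plus strand, with no overlapping gene in the table.

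Fut8, which adds the core fucose of N-glycans and was the most abundant of the class, averaged 8.32 ± 0.3 FPKM in KO with oxLDL, 8.41 ± 0.17 FPKM in untreated KO, 6.19 ± 0.18 FPKM in oxLDL-treated WT and 5.51 ± 0.2 FPKM in untreated WT. It rose by 0.58 ± 0.05 (log2) with oxLDL in WT (adjusted p = 1.6e-07) and was higher in untreated KO by 0.72 ± 0.05 (log2, adjusted p = 2.83e-08). Its share of the class FPKM was 46.4 ± 1.4% in KO with oxLDL, 46.8 ± 0.79% in untreated KO, 71.6 ± 0.97% in oxLDL-treated WT and 43 ± 1.2% in untreated WT. Fut11 averaged 4.28 ± 0.25, 4.48 ± 0.29, 1.48 ± 0.14 and 4.42 ± 0.17 FPKM in KO with oxLDL, untreated KO, WT with oxLDL and untreated WT. It fell by 1.17 ± 0.09 (log2) with oxLDL in WT (adjusted p = 4.41e-08), and Fut4, which makes Lewis x structures, fell by 0.73 ± 0.15 (log2) there (adjusted p = 0.00087).

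The sialyltransferases had log2 oxLDL changes in WT between -5.02 (St6gal1) and 2.88 (St3gal5). With oxLDL in WT 6 of 13 tested genes rose and 3 fell, and with library totals 3 rose and 5 fell. In KO against WT, 5 were higher and 4 lower with oxLDL (7 and 4 with library totals), and 6 were higher and 2 lower without treatment (4 and 2 with library totals).

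St6gal1, which caps N-glycans with alpha-2,6-linked sialic acid, read 26.4, 28 and 28.7 FPKM in KO with oxLDL, 28, 27.3 and 26 FPKM in untreated KO, 0.329, 0.235 and 0.26 FPKM in oxLDL-treated WT, and 12.3, 11.9 and 12.1 FPKM in untreated WT. The KO groups overlapped each other, untreated WT lay clearly below them, and WT with oxLDL was lower again. The log2 change with oxLDL was 0.03 ± 0.06 in KO (adjusted p = 0.998) and -5.02 ± 0.09 in WT (adjusted p = 1.55e-14). The log2 difference KO over WT was 6.32 ± 0.09 with oxLDL (adjusted p = 2.35e-16) and 1.27 ± 0.06 untreated (adjusted p = 8.46e-10). B cells also express this gene. The summed B cell markers, nearly all Ighm, were lower in both KO groups, while mean Cd79b and mean Ms4a1 were higher there. The part of B cells in the St6gal1 levels was not tested. St6gal1 lies on chr16:23224740-23360348 on the plus strand and overlaps BC106179 on the other strand.

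St3gal5, the GM3 synthase that opens the ganglioside pathway, showed the opposite order. It read 7.26, 7.47 and 6.9 FPKM in KO with oxLDL, 6.63, 7.28 and 7.22 FPKM in untreated KO, 80.3, 79.5 and 81.9 FPKM in oxLDL-treated WT, and 14.6, 14.1 and 14.7 FPKM in untreated WT. Replicates were tight and WT libraries all exceeded KO libraries. The log2 change with oxLDL was 0.03 ± 0.05 in KO (adjusted p = 0.993) and 2.88 ± 0.05 in WT (adjusted p = 2.06e-14), and KO over WT was -3.78 ± 0.05 with oxLDL (adjusted p = 2.87e-16) and -0.93 ± 0.05 untreated (adjusted p = 1.98e-09). The gene lies on chr6:72097592-72154571 on the plus strand and overlaps Gm29438 and 4933431G14Rik.

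St3gal1, which caps core 1 O-glycans with alpha-2,3-linked sialic acid, read 22.2, 23.2 and 24.2 FPKM in KO with oxLDL, 25.9, 22.4 and 24.2 FPKM in untreated KO, 88.9, 83.3 and 81.4 FPKM in oxLDL-treated WT, and 43.7, 39 and 41 FPKM in untreated WT. It rose by 1.44 ± 0.06 (log2) with oxLDL in WT (adjusted p = 6.97e-11) and KO over WT was -2.17 ± 0.06 with oxLDL (adjusted p = 4.06e-13) and -0.67 ± 0.06 untreated (adjusted p = 6.55e-07). The KO groups overlapped and the WT groups stood apart from them and from each other. St3gal3, which acts mainly on type 1 and type 2 chains, read 5.32, 4.94 and 6.28 FPKM in KO with oxLDL, 5.56, 5.07 and 4.58 FPKM in untreated KO, 21.4, 18.6 and 16.6 FPKM in oxLDL-treated WT, and 6.03, 5.88 and 5.86 FPKM in untreated WT. Only the WT libraries with oxLDL stood apart by a wide margin, with a log2 change of 2.08 ± 0.11 (adjusted p = 7.64e-10), and untreated KO and WT did not differ past the threshold (log2 difference -0.12 ± 0.11, adjusted p = 0.487).

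St3gal2, which serves O-glycans and the later gangliosides, fell by 0.80 ± 0.07 (log2) with oxLDL in WT (adjusted p = 1.71e-07), where St3gal1, St3gal3 and St3gal5 rose. It averaged 9.49 ± 0.16 FPKM in KO with oxLDL, 8.23 ± 0.64 FPKM in untreated KO, 3.3 ± 0.16 FPKM in oxLDL-treated WT and 7.63 ± 0.51 FPKM in untreated WT. St6galnac6, which adds alpha-2,6 sialic acid to gangliosides and other acceptors, averaged 9.2 ± 0.69, 9.27 ± 0.88, 2.03 ± 0.16 and 8.38 ± 0.51 FPKM in the same groups and fell by 1.63 ± 0.09 (log2) with oxLDL in WT (adjusted p = 1.12e-09). In both genes WT with oxLDL lay below all other libraries, and the small untreated log2 differences of KO over WT, 0.22 ± 0.07 (adjusted p = 0.024) and 0.25 ± 0.09 (adjusted p = 0.0373), came from overlapping libraries and no longer passed with library totals (0.11 and 0.14). Without 1 library the St3gal2 difference did not pass in 3 of the 12 fits, leaving out untreated KO replicate 1 (0.15), untreated WT replicate 1 (0.19) or untreated WT replicate 3 (0.18). That of St6galnac6 did not pass in 7 (0.21 to 0.27), nor in edgeR with the replicate block (adjusted p = 0.0622) or no filter (0.0502). Neither difference passed with limma on log2(FPKM + 1) or log2(FPKM + 0.1).

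By FPKM, St3gal4, St6galnac4 and St8sia4 were higher in every KO library than in every WT library. St3gal4, a leukocyte sialyltransferase of selectin ligands, averaged 18.2 ± 1.9 FPKM in KO with oxLDL, 18.4 ± 1.1 FPKM in untreated KO, 13.5 ± 0.92 FPKM in oxLDL-treated WT and 12.7 ± 0.78 FPKM in untreated WT. St6galnac4, which disialylates core 1 O-glycans, averaged 22 ± 1.2, 20.1 ± 0.33, 14.3 ± 1.1 and 13.6 ± 0.45 FPKM, and St8sia4, a polysialic acid synthase, 6.13 ± 0.29, 6.48 ± 0.44, 3.38 ± 0.058 and 4.3 ± 0.27 FPKM, in the same groups. The untreated log2 difference KO over WT was 0.65 ± 0.08 (adjusted p = 1.34e-05) for St3gal4, 0.67 ± 0.06 (adjusted p = 4.3e-07) for St6galnac4 and 0.70 ± 0.06 (adjusted p = 1.86e-07) for St8sia4. The log2 oxLDL rises of St3gal4 (0.50 ± 0.08) and St6galnac4 (0.48 ± 0.06) in WT did not pass with library totals (0.09 and 0.07), and their treated and untreated WT libraries overlapped; with oxLDL, KO over WT was 0.13 ± 0.08 for St3gal4 with TMM (adjusted p = 0.165) and 0.44 with library totals (adjusted p = 0.000187).

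As shares of all sialyltransferase FPKM, St6gal1 held 21.5 ± 0.25% in KO with oxLDL, 21.5 ± 0.49% in untreated KO, 0.124 ± 0.019% in oxLDL-treated WT and 9.99 ± 0.078% in untreated WT. St3gal5 held 5.6 ± 0.33%, 5.58 ± 0.38%, 36.4 ± 1.3% and 12 ± 0.074%, and St3gal1 18 ± 0.32%, 19.1 ± 1.2%, 38.2 ± 0.7% and 34.2 ± 1.4%, in the same groups. These shares do not depend on how libraries are scaled.

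**Figure D3:**
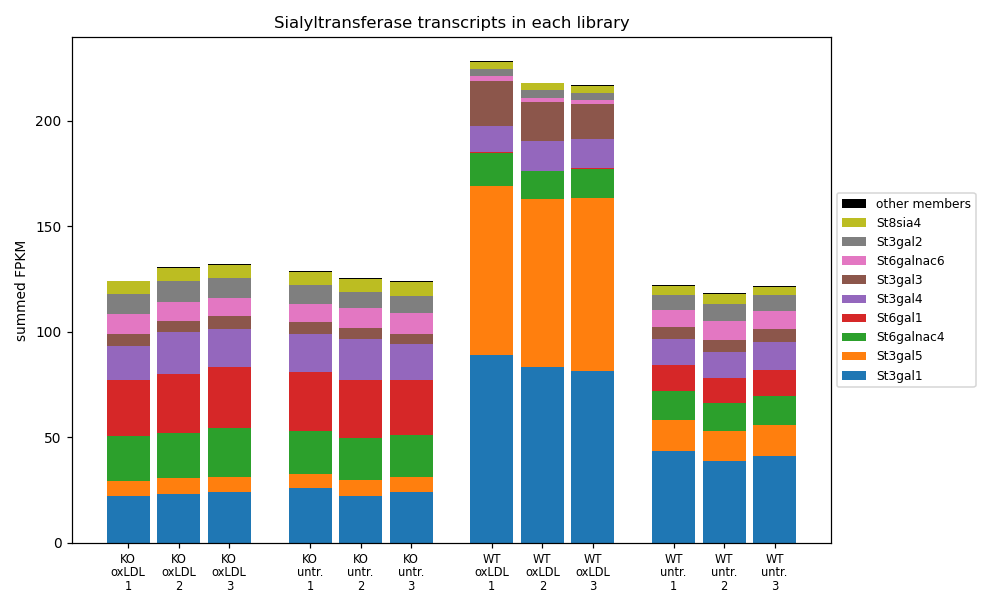
Stacked FPKM (vertical axis) of the sialyltransferase genes in each of the 12 libraries, grouped as KO with oxLDL, untreated KO, WT with oxLDL and untreated WT; colours are genes and numbers are replicates. In WT with oxLDL St3gal1 and St3gal5 fill most of a taller bar (221 FPKM on average) and the St6gal1 band is hardly visible, while the 6 KO bars are alike.

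Sulfotransferases finish chondroitin, dermatan and keratan chains. With oxLDL in WT 2 of 8 tested genes fell and 1 rose (3 and 1 with library totals). In KO against WT, 3 were higher and 2 lower with oxLDL (4 and 2 with library totals), and 2 were higher and 1 lower without treatment (1 and 3 with library totals).

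Chst11 and Chst12, which both sulfate position 4 of chondroitin, moved in opposite directions with oxLDL in WT. Chst12 read 19.9, 20.2 and 20 FPKM in KO with oxLDL, 18.5, 18.2 and 18.7 FPKM in untreated KO, 5.2, 4.6 and 4.7 FPKM in oxLDL-treated WT, and 20.7, 16.7 and 19 FPKM in untreated WT, and it fell by 1.55 ± 0.08 (log2) in WT (adjusted p = 5.9e-10). Chst11 read 10.9, 11.6 and 11.1 FPKM in KO with oxLDL, 11.8, 11 and 11.2 FPKM in untreated KO, 8.1, 8.95 and 8.25 FPKM in oxLDL-treated WT, and 6.92, 5.93 and 6.82 FPKM in untreated WT, and it rose by 0.77 ± 0.07 (log2) in WT (adjusted p = 1.85e-07). For Chst12 untreated KO overlapped untreated WT and WT with oxLDL was far below. For Chst11 both KO groups were above both WT groups, by 0.89 ± 0.07 (log2) without treatment (adjusted p = 6.98e-08), while with oxLDL the difference of 0.11 ± 0.07 did not pass with TMM (adjusted p = 0.179) and was 0.41 with library totals (adjusted p = 5.44e-05). By share of the class FPKM, Chst12 held 52 ± 1.1% in KO with oxLDL, 50.1 ± 1.4% in untreated KO, 26.9 ± 1.9% in oxLDL-treated WT and 54.8 ± 1.6% in untreated WT. Chst14, the dermatan 4-O-sulfotransferase, also fell by 0.61 ± 0.10 (log2) with oxLDL in WT (adjusted p = 0.000106).

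**Figure D4:**
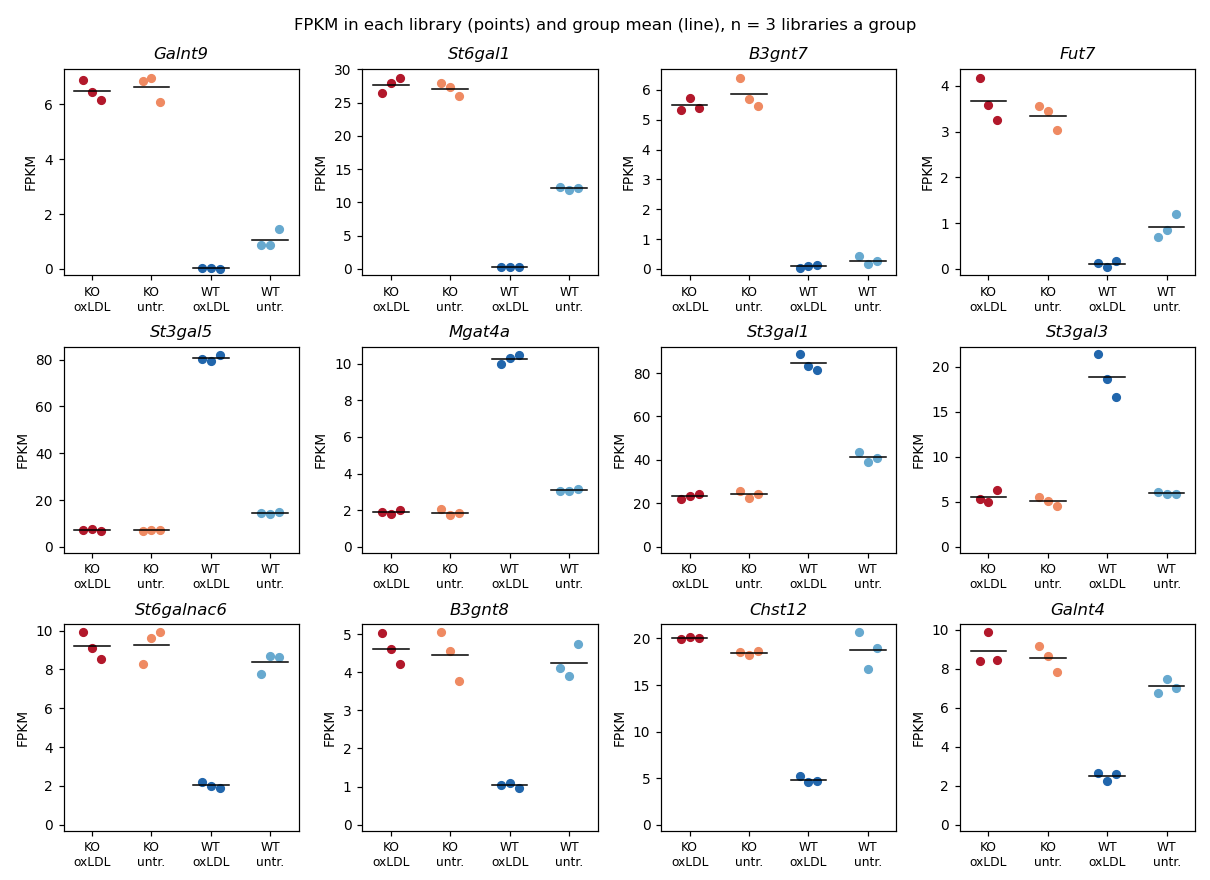
FPKM (vertical axes, each including 0) in every library for 12 enzyme genes, with KO with oxLDL, untreated KO, WT with oxLDL and untreated WT side by side; points are libraries and lines are means of 3. Galnt9, St6gal1, B3gnt7 and Fut7 are highest in both KO groups, St3gal5, Mgat4a, St3gal1 and St3gal3 are highest in WT with oxLDL, and St6galnac6, B3gnt8, Chst12 and Galnt4 are low in WT with oxLDL alone.

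**Figure D5:**
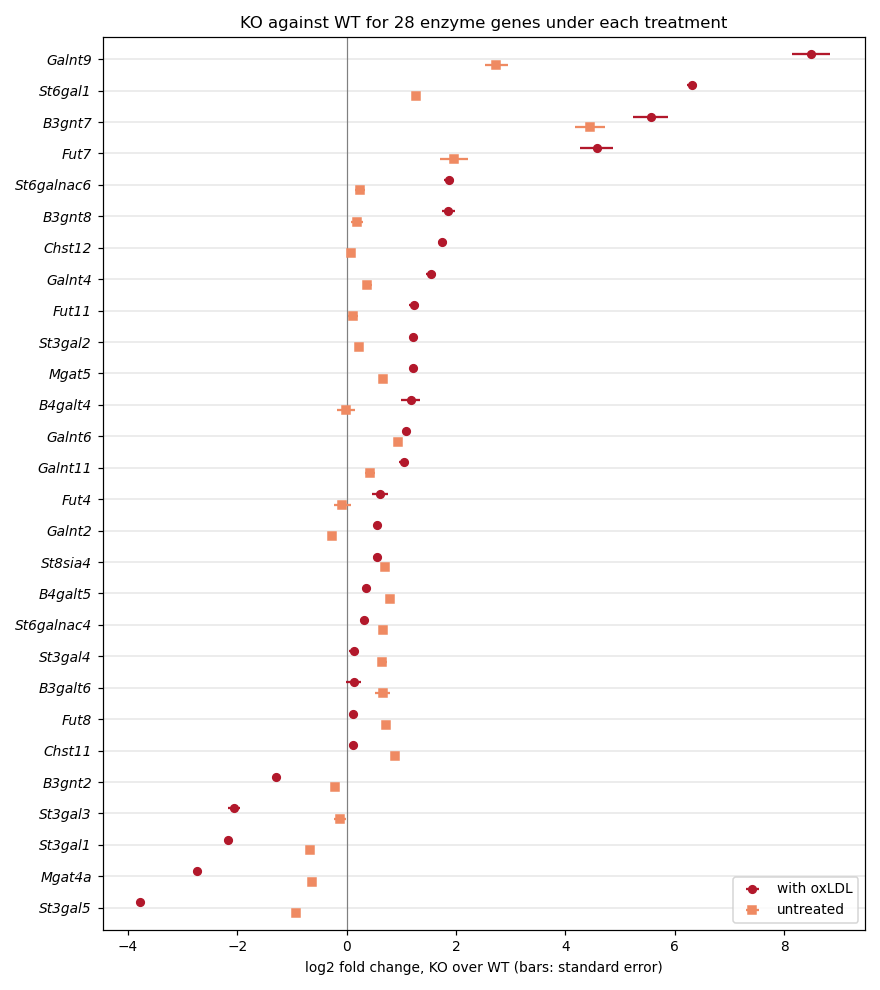
Log2 fold change of KO over WT (horizontal axis) with oxLDL (red circles) and untreated (orange squares) for 28 enzyme genes; bars are standard errors. With oxLDL the differences run between -3.78 for St3gal5 and 8.50 for Galnt9, and untreated between -0.93 for St3gal5 and 4.45 for B3gnt7.

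Of the 35 members under 1 FPKM 21 were tested, and 9 of these passed in at least 1 of the 4 comparisons between groups, namely Galnt15, Galnt6os, Mgat3, B3gnt5, Fut10, St3gal6, Chst1, Chst3 and Chst15. By comparison 4 passed for oxLDL in WT (2 higher, 2 lower), 0 for oxLDL in KO, 8 for KO against WT with oxLDL (4 higher, 4 lower) and 3 without treatment (2 higher, 1 lower). Of all genes 51.2%, 0.0116%, 57.9% and 31.0% passed in the same comparisons, so these members did not pass more often than genes at large. Galnt15 had 45 counts in KO with oxLDL, 98 counts in untreated KO and 0 counts in all 6 WT libraries. Against a floor of 3 counts over a group of 3 libraries it was at least 10.8-fold higher in KO with oxLDL and at least 32.1-fold higher in untreated KO than in WT of the same treatment. These 9 were named after their values were seen. Chst15, which forms disulfated chondroitin units, averaged 0.0965 ± 0.04 FPKM in KO with oxLDL, 0.171 ± 0.024 FPKM in untreated KO, 0.251 ± 0.095 FPKM in oxLDL-treated WT and 0.411 ± 0.029 FPKM in untreated WT, and KO was lower with oxLDL (log2 difference -1.67 ± 0.32, adjusted p = 0.000406). St3gal6, which shares selectin-ligand acceptors with St3gal4, averaged 0.0112 ± 0.019, 0.0276 ± 0.017, 0.143 ± 0.035 and 0.0325 ± 0.0053 FPKM in the same groups, and log2 KO over WT with oxLDL was -3.96 ± 1.04 (adjusted p = 0.00449).

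The genes that supply, precede or read these enzymes were taken from 10 lists, and none of their tested genes changed with oxLDL in KO. Their counts stand against 23.9% of all genes higher and 27.2% lower with oxLDL in WT, and 30.6% higher and 27.4% lower in KO than in WT with oxLDL. Of 6 genes of sialic acid supply 5 fell and 0 rose with oxLDL in WT, and 5 were higher and 0 lower in KO than in WT with oxLDL. Gne, the first enzyme of sialic acid synthesis, averaged 2.82 ± 0.21 FPKM in KO with oxLDL, 2.77 ± 0.18 FPKM in untreated KO, 0.827 ± 0.14 FPKM in oxLDL-treated WT and 2.43 ± 0.25 FPKM in untreated WT. It fell by 1.14 ± 0.12 (log2) with oxLDL in WT (adjusted p = 2.02e-06), and Cmas, which activates sialic acid to its donor, fell by 0.80 ± 0.07 (adjusted p = 2.42e-07) and Nans, the sialic acid synthase, by 0.74 ± 0.08 (adjusted p = 1.44e-06). The group in which they fell, WT with oxLDL, was also the one with the highest summed sialyltransferase FPKM.

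Of 5 genes that remove or edit sialic acid, 2 fell with oxLDL in WT (5 with library totals), Siae by 0.84 ± 0.07 on the log2 scale (adjusted p = 8.15e-08) and Npl by 0.79 ± 0.27 (adjusted p = 0.0225). Of 6 genes of fucose supply 2 rose and 2 fell there (0 and 4 with library totals), Slc35c2, a Golgi membrane protein linked to fucosylation (log2 change -1.42 ± 0.13, adjusted p = 2.44e-07), and Gmds, the first enzyme of GDP-fucose synthesis (-1.42 ± 0.20, adjusted p = 3.24e-05), being those that fell. Of 5 genes listed under sulfate donor supply 3 fell there (5 with library totals). The donor synthases Papss2 (log2 change -0.95 ± 0.05, adjusted p = 2.57e-10) and Papss1 (-0.58 ± 0.07, adjusted p = 7.3e-06) were among them. Of 13 genes of galactose and N-acetylhexosamine supply 3 rose and 6 fell there (2 and 10 with library totals), and Gfpt2 and Gfpt1, which open the hexosamine pathway, were among those that rose (log2 changes 1.43 ± 0.18, adjusted p = 1.01e-05, and 0.71 ± 0.04, adjusted p = 1.39e-09).

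Of 5 tested core enzymes of O-glycans outside the symbol rule 2 rose and 2 fell with oxLDL in WT (0 and 2 with library totals). Gcnt1, which makes core 2 branches, averaged 9.38 ± 0.28 FPKM in KO with oxLDL, 9.8 ± 0.79 FPKM in untreated KO, 0.322 ± 0.035 FPKM in oxLDL-treated WT and 5.21 ± 0.45 FPKM in untreated WT, and fell by 3.61 ± 0.09 (log2) with oxLDL in WT (adjusted p = 4.53e-13). C1galt1, the core 1 synthase, fell by 1.54 ± 0.11 (log2) there (adjusted p = 3.19e-08).

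N-glycan trimming enzymes and glycosaminoglycan enzymes held pairs of related genes with opposite changes. Man2a2 fell by 1.71 ± 0.07 (log2, adjusted p = 6.12e-11) and Man2a1 rose by 1.20 ± 0.05 (adjusted p = 4.1e-11) with oxLDL in WT; both are Golgi mannosidases that act between Mgat1 and Mgat2. Of the 9 trimming genes 3 rose and 3 fell (1 and 8 with library totals). Xylt1 fell by 2.46 ± 0.07 (log2, adjusted p = 5.18e-13) and Xylt2 rose by 1.85 ± 0.06 (adjusted p = 1.74e-12); both are xylosyltransferases that start glycosaminoglycan chains. Of the 12 glycosaminoglycan genes 5 rose and 3 fell (3 and 6 with library totals).

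Around the glycolipid enzymes, Ugcg, the glucosylceramide synthase upstream of B4galt5, B4galt6 and St3gal5, rose by 1.12 ± 0.06 (log2) with oxLDL in WT (adjusted p = 5.32e-10), and B4galnt1, which takes GM3 on to complex gangliosides, fell by 0.84 ± 0.11 (log2, adjusted p = 1.4e-05). Of the 9 genes of this list 2 rose and 6 fell (1 and 7 with library totals).

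Receptors that bind these glycans changed in both directions, 6 of 16 tested up and 7 down with oxLDL in WT. Siglece, an inhibitory siglec, averaged 0.57 ± 0.35 FPKM in KO with oxLDL, 0.55 ± 0.12 FPKM in untreated KO, 80 ± 2.1 FPKM in oxLDL-treated WT and 17.2 ± 0.21 FPKM in untreated WT. Siglecf, a siglec of eosinophils and some macrophages, went the other way with 2.97 ± 0.23, 3.1 ± 0.051, 0.0807 ± 0.014 and 0.447 ± 0.092 FPKM. The eosinophil genes Prg2 and Epx were at or near 0 in all groups, and the part of eosinophils in the Siglecf levels was not tested.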

How the data were processed

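The deposited table holds, for 12 libraries of mouse primary peritoneal macrophages, whole-number read counts per gene made by the authors and, beside them, FPKM values the authors computed from them, with gene names and positions. HISAT2 2.0, Bowtie 0.12.2 and mm8 are named in the submitters' processing notes, with no role given; no source used here names the counting tool or says whether it used strand. Libraries were grouped by genotype and treatment labels, 3 in each of 4 groups. Counts were tested with edgeR 4.0.16 in R 4.3.3 (filterByExpr, TMM scaling, quasi-likelihood F-test, all 4 groups in 1 fit, 5 contrasts), with p-values adjusted by Benjamini-Hochberg over all 17291 genes tested and a threshold of 0.05; the SE of a log2 change was its size divided by the square root of F. The scripts were tested on simulated counts. Levels are FPKM. Alternatives were DESeq2 1.42.0, its size factors in edgeR, library totals, no filter, limma 3.58.1 (trend) on log2(FPKM + 1) and log2(FPKM + 0.1), only the groups compared, a replicate block, and each library left out; FPKM sums divided by TMM factors were added after seeing the data. Of 66 pairs of libraries 0 had identical counts. Intervals and floors cover counting error only. The members, enzyme classes, partner lists and marker lists were chosen with earlier results of these data known. Members described with full values were up to 28 that passed a test in at least 1 of the 4 simple contrasts and reached 1 FPKM in a group mean, by largest log2 change; the most abundant gene of each class and up to 3 genes per partner list were added by rule.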

Additional observations from a re-analysis of the deposited data

Results flagged for a closer look

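In 26 of the 28 enzyme genes given in full the oxLDL change differed between genotypes by the interaction test of edgeR, with adjusted p between 4.79e-13 and 0.0492. The 28 were picked for a large change that passed in comparisons built from the same libraries, so a high count was partly fixed beforehand. Among all 62 tested members 34 passed, as did 41.7% of all genes. The values below are the log2 oxLDL change of KO minus that of WT, with TMM scaling, so a positive value means that the gene fell less or rose more with oxLDL in KO. Among the 15 positive values the largest were Galnt9 (5.77 ± 0.45, SE), St6gal1 (5.05 ± 0.11) and Fut7 (2.61 ± 0.38). They were followed by B3gnt8 (1.68), Chst12 (1.67), St6galnac6 (1.62), B4galt4 (1.18), Galnt4 (1.16), B3gnt7 (1.10), Fut11 (1.10) and St3gal2 (1.01), and then by Galnt2 (0.84), Fut4 (0.70), Galnt11 (0.62) and Mgat5 (0.56). Among the 11 negative values the largest in size were St3gal5 (-2.85 ± 0.07), Mgat4a (-2.10 ± 0.09) and St3gal3 (-1.96 ± 0.15). The others were St3gal1 (-1.50), B3gnt2 (-1.08), Chst11 (-0.78), Fut8 (-0.59), B3galt6 (-0.52), St3gal4 (-0.51), B4galt5 (-0.44) and St6galnac4 (-0.35). In each of the 26 the oxLDL change within KO missed the threshold. The value of B3gnt7 did not pass in 10 of the 12 fits that left out 1 library (0.68 to 1.19), and that of B3galt6 did not in 11 (-0.57 to -0.43), nor with the replicate block (-0.52, adjusted p = 0.071) or no filter (-0.50, adjusted p = 0.0937). With library totals in place of TMM the values of B3galt6 (-0.11), B4galt5 (-0.03) and St3gal4 (-0.10) did not pass, and that of St6galnac4 was 0.06, also short of the threshold.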

How the results depend on the processing

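The number of members that passed each test stayed within 1.5 times the reported count under every alternative run. Leaving out 1 library at a time gave 34 to 38 members for oxLDL in WT, 0 for oxLDL in KO, 27 to 30 for KO against WT untreated, 38 to 43 with oxLDL and 29 to 36 for the interaction. Same-numbered libraries did not deviate together (correlations between -0.04 and 0.03), and with the replicate number as a block the counts were 35, 0, 28, 42 and 31 in the same order. Over all genes DESeq2 called 98 of 17226 genes for oxLDL in KO, against 2 of 17291 with edgeR, where 1211 had an unadjusted p under 0.05. Scaling by library totals moved the interaction split to 30 higher and 7 lower, and log2(FPKM + 0.1) in limma gave 30 and 8. Directions turned for these results under the scaling. The interaction of St6galnac4 was 0.06 with library totals and with limma at either pseudocount; that of St8sia4 was 0.27 with library totals and 0.25 with log2(FPKM + 0.1), against -0.15; and the oxLDL change of St8sia4 in WT was -0.34 with library totals, -0.33 with log2(FPKM + 0.1) and -0.27 with log2(FPKM + 1), against 0.07. Among the other members Galnt7 and B4galt1 passed in opposite directions for oxLDL in WT and the interaction, and among partner genes Slc35a3, Chpf2, Man1a2 and Prkcsh were among those that did so for oxLDL in WT. Dividing FPKM by the TMM factors, chosen after seeing the data, turned the log2 ratio of class sums in WT (oxLDL over untreated) to 0.21 for galactosyltransferases and 0.06 for N-glycan branching enzymes, against -0.20 and -0.35. WT libraries with oxLDL had TMM factors of 0.832 to 0.843 and untreated WT libraries 1.1 to 1.125. The settings that turned the directions of single genes apply no such factor, while the class sums turned when it was applied. The cause of the other changes of call was not tested. The interaction of B3gnt7 (1.10) did not pass with DESeq2 (1.04), DESeq2 size factors (1.05), no filter (1.12) or the block (1.09). Members under 1 FPKM rest on few counts, and differences there may not be detectable at this depth.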
